A study of Mus musculus with 6 samples.

Results

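Rbp4-selected fibroblasts are single mouse lung cells that carried collagen transcripts, at least 1 transcript of Rbp4 and transcripts of at least 2 of the 6 genes Adam23, Aox3, Bdkrb1, Slco2b1, St8sia2 and Sema3d. They were chosen by a rule on unique molecular identifiers (UMIs, each standing for 1 captured RNA molecule). A barcode needed 500 or more genes and at most 10% of its UMIs from mitochondrial genes. It then needed 3 or more UMIs of Col1a2 and Col3a1 together, 1 or more of Rbp4, a UMI of 2 or more of the 6 genes, and none of Pi16, Slc7a10, Hhip, Cdh22 and Ptprc. The rule chose 176 of 2660 mesenchymal cells (6.62%, exact binomial 95% interval 5.70 to 7.63), among 9994 barcodes that passed the filter and 10410 in all. The other 2484 mesenchymal cells, which met the collagen minimum, served as the comparison.

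The cells came from SMA-GFP;Tbx4cre;RosaTdTomato mice, which carry a GFP reporter of smooth muscle actin and a tdTomato reporter switched on in the Tbx4 lineage. Lung cells were sorted for lack of Epcam, CD31 and CD45, the surface marks of epithelial, endothelial and blood cells, then by both reporters. The labels list 6 samples, which are the SMA+Tm+, SMA-Tm+ and SMA-Tm- gates on day 0 and the same gates on day 21 of mice given bleomycin, a drug that injures the lung. The deposited table pools all 6 under barcode suffixes from 1 to 6 that no label ties to a gate or a day, so neither days nor gates were compared, and the values below describe 1 pooled sample without a test.

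Fibroblasts of the lung are of several kinds. Those in the sheaths of vessels and airways, often marked by Pi16 and Col14a1, differ from those in the alveolar walls, often marked by Npnt and Col13a1, and from the contractile cells at the alveolar duct mouths, which carry Hhip. Rbp4 encodes the secreted protein that carries retinol in blood. Adam23 is a cell surface protein of the disintegrin family, Aox3 an aldehyde oxidase, Bdkrb1 the inducible B1 receptor of kinins and Slco2b1 an organic anion transporter. St8sia2 adds polysialic acid chains to adhesion proteins, and Sema3d is a secreted guidance protein. Col15a1 encodes collagen XV of the basement membrane zone.

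Promoter windows of the 3 chosen genes behind most selections are shown because Rbp4 was required in each cell and because St8sia2 and Slco2b1 were the genes of the 6 found in most cells. Each window holds the 300 bases around a transcript start in RefSeq on GRCm38.p6, read 5′ to 3′ on the gene's strand. They are chr19:38124762-38125061 (minus strand) for Rbp4, chr7:74013633-74013932 (minus) for St8sia2 and chr7:99711291-99711590 (minus) for Slco2b1. Capitals mark matches, on either strand, to 6 motifs that were searched.
Rbp4: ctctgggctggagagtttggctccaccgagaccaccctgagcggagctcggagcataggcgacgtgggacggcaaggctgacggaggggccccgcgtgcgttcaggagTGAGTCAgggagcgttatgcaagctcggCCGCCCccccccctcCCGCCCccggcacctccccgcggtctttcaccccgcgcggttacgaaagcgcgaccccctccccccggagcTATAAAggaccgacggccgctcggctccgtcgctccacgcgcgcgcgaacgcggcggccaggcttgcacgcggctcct
St8sia2: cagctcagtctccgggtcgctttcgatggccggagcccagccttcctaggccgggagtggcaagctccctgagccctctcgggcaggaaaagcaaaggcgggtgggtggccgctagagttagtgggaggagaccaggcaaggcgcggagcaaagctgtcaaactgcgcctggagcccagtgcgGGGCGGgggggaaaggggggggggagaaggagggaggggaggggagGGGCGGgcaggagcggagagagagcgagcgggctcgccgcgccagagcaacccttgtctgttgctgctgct
Slco2b1: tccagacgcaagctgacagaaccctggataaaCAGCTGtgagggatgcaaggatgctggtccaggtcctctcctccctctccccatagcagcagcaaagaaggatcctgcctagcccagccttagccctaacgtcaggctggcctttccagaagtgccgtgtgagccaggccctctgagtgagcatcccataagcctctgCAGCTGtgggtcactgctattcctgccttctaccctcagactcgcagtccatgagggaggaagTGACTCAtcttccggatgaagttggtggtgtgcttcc
The Rbp4 window held a TATA box (TATAAA) at base 223, GC boxes (GGGCGG) at 137 and 152 and an AP-1 site (TGACTCA) at 109. The St8sia2 window held GC boxes at 184 and 230. The Slco2b1 window held E-boxes (CAGCTG) at 33 and 201 and an AP-1 site at 264. No match was found there to the nuclear receptor half-site AGGTCA or to the longer NR4A element AAAGGTCA, which contains that half-site. Of 32851 mouse promoter windows of this length, 13.6% held TATAAA, 35.7% GGGCGG, 16.3% CAGCTG, 5.20% TGACTCA, 16.3% AGGTCA and 1.51% AAAGGTCA. A second Rbp4 window and those of Adam23, Aox3, Sema3d and Col15a1 held none of the 6.

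Suffix 4 held 142 of the 176 selected cells (80.7%, against 72.4% of all mesenchymal cells), suffix 1 held 26, and suffixes 2, 3, 5 and 6 together held 8. As a share of the mesenchymal cells of the same suffix they were 4.60%, 3.85%, 7.32%, 7.37%, 4.88% and 2.86% in suffixes 1 to 6. Selected cells of suffix 1 held Y-linked transcripts in 16 of 26 and Xist in 0, while those of suffix 4 held Xist in 140 of 142 and Y-linked transcripts in 0. Of 10355 barcode sequences 55 occurred under more than 1 suffix, and 2 selected cells had such a sequence, neither shared with another selected cell. Selected cells were deeper than the rest, with a median of 4223 UMIs and 1779 genes against 2897 and 1412, and a deeper cell meets the minimum of the rule more easily. Their mitochondrial share was alike (median 3.03% against 3.15%). Levels are CPM, the UMIs of a gene summed over cells and scaled to a common total, with exact Poisson intervals, and ratios have exact binomial intervals. All intervals are at 95% and cover counting error only, not differences between mice.

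The genes of the rule are a description of the choice, and their levels in the selected cells are fixed by it. The Rbp4 gene lies on the minus strand of chromosome 19 in GRCm38, from 38116629 to 38125281. Its level was 693 CPM (636 to 754) in selected cells and 286 CPM in other mesenchymal cells, of which 35.4% had a UMI of it. A selected cell held 1 to 17 UMIs of Rbp4 with a median of 2, and 54 cells held only 1. Rbp4 was also well above background in cells the rule left out, at 464 CPM in cells with Pi16 and 496 CPM in cells with Cdh22, against 211 CPM in cells with Hhip, 56.5 CPM in cells with Slc7a10 and 1.92 CPM in 4211 immune cells (Ptprc and no collagen UMI). Rbp4 was thus found across several fibroblast groups and was lowest in the Slc7a10 cells.

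Most selected cells met the rule at its lower limit. Of the 6 genes, 114 cells had a UMI of exactly 2, 40 of 3, 17 of 4, 5 of 5 and 0 of all 6. St8sia2 was found in 115 of 176 cells (65.3%), Slco2b1 in 113 (64.2%), Sema3d in 88, Aox3 in 44, Adam23 in 42 and Bdkrb1 in 39. The pair met most often was Slco2b1 with St8sia2 (64 cells), while Adam23 and Aox3, the genes named first, were found together in 8. In levels, St8sia2 stood at 227 CPM (195 to 263) against 85.8 CPM in other mesenchymal cells, Slco2b1 at 198 CPM (168 to 231) against 63.0 CPM, and Sema3d at 140 CPM against 62.2 CPM. Aox3 stood at 73.2 CPM against 26.5, Bdkrb1 at 62.9 against 17.2 and Adam23 at 57.8 (42.1 to 77.3) against 20.4. Some excluded groups reached the same levels without having been chosen for these genes. Adam23 was at 56.6 CPM (44.4 to 71.2) and Sema3d at 136 CPM in Pi16 cells, whereas St8sia2 was highest outside the selection in Cdh22 cells (153 CPM). In immune cells 5 of the 6 were between 0.180 and 4.27 CPM and Slco2b1 was at 20.1 CPM.

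**Figure D1:**
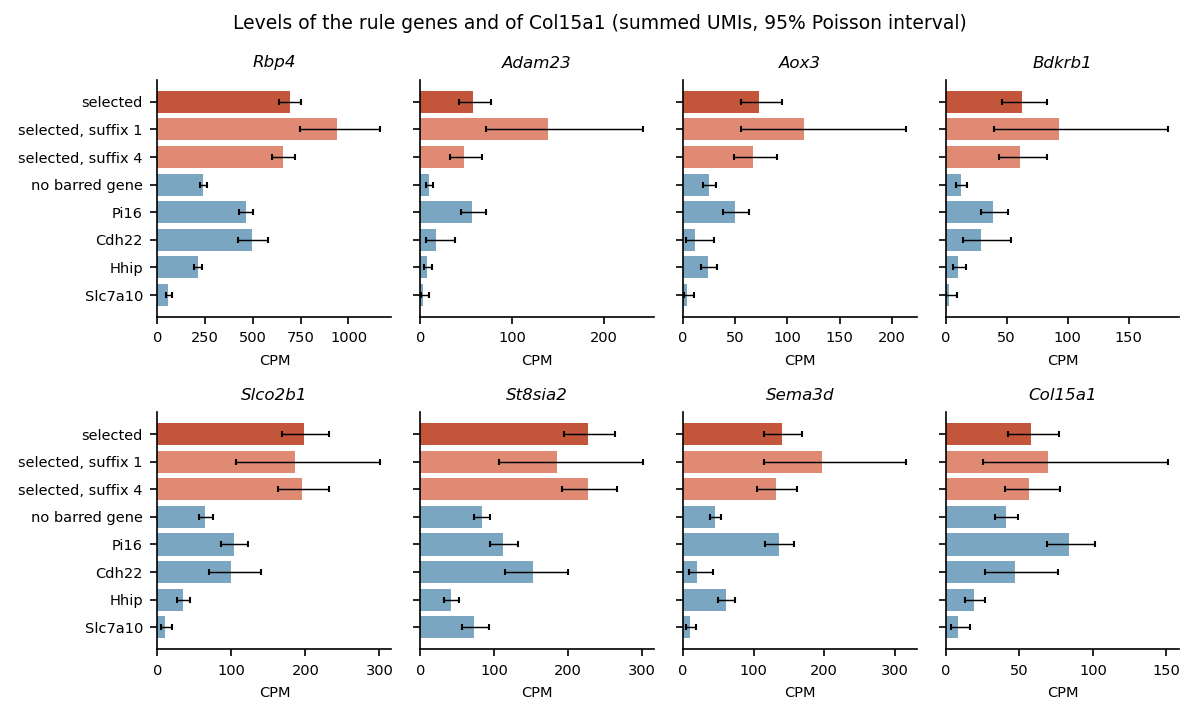
Levels (CPM of summed UMIs, with exact Poisson 95% intervals) of Rbp4, the 6 genes of which 2 were required, and Col15a1 in the 176 selected cells, in those of suffixes 1 and 4, in 882 other mesenchymal cells without any of the 5 barred genes, and in cells with exactly 1 of Pi16, Cdh22, Hhip and Slc7a10 and no Ptprc. Adam23 and Sema3d in Pi16 cells reach the level of the selected cells, and Col15a1 is highest in Pi16 cells.

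Levels of Rbp4 and Col15a1 on either side of each limit are given as a description, and no wider profile was compared there. The 114 cells with exactly 2 of the 6 genes had Rbp4 at 696 CPM and Col15a1 at 42.8 CPM, and the 157 cells left out for having exactly 1 of the 6 had Rbp4 at 653 CPM and Col15a1 at 46.4 CPM. At the Rbp4 minimum, the 54 cells with 1 UMI had Col15a1 at 78.8 CPM, and 85 cells that met all but the Rbp4 criterion had it at 59.8 CPM. At the collagen minimum, 20 cells lay inside at 3 to 5 UMIs and 1 outside at 1 or 2 UMIs.

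Col15a1 (chromosome 4, 47208161 to 47313167, plus strand), in the name proposed for these cells but not in the rule, was higher in them than in all other mesenchymal cells pooled, though not than in Pi16 cells. It had 45 UMIs in 33 of the 176 cells, or 57.8 CPM (42.1 to 77.3), against 40.5 CPM (36.3 to 45.1) in other mesenchymal cells, a log2 ratio of 0.51 (0.03 to 0.96). With every cell thinned to 1500 UMIs, 9.30% of selected and 5.01% of other mesenchymal cells had a Col15a1 UMI, and 0.404% of immune cells (18.8%, 9.18% and 0.926% before thinning). Within suffix 1 the level was 69.5 CPM against 28.5, from 6 UMIs, and within suffix 4 it was 56.7 against 43.3. Pi16 cells held more of it, at 83.8 CPM (68.7 to 101), Cdh22 cells had 47.0 CPM (26.8 to 76.2), and Hhip and Slc7a10 cells had 19.1 and 8.38 CPM. The interval of the ratio to cells without any barred gene included 0 (log2 0.50, -0.03 to 1.01), and with 10 or more collagen UMIs required of all cells the log2 ratio was -0.066. It was 0.98 with 3 of the 6 genes required, 1.11 without suffix 4 and 0.80 with cells thinned. Col15a1 was thus not particular to the selected cells, which are called by their rule here.

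The selected cells did not form a group of their own when the 14 genes of the rule were left out. Clustering all mesenchymal cells without those genes gave 10 clusters, numbered C1 to C10 by size. Cluster C3 (521 cells) held 103 selected cells, or 58.5% of them (50.9 to 65.9), and they made up 19.8% of its cells. Its leading genes by fold were Nt5dc2, Bcas3, Rbp4, St8sia2, Clec11a, Slco2b1, Nr4a2, Trabd2b, Nr4a3 and Lrrc32, of which Rbp4, St8sia2 and Slco2b1 had played no part in drawing it. Cluster C2 (528 cells, led by Pi16, Scara5 and Ccl11) held 40 selected cells, C5 (311 cells, led by C7, Itga8 and Cxcl14) held 26, C7 (70 cells, led by Adh7, Bmp7 and Aqp1) held 5, and C6 and C8 held 1 each. Clusters C1, led by Hhip, and C4, led by Slc7a10, held 0 of 176, though the rule itself bars any cell with a UMI of either gene. Among the nearest neighbours of a selected cell in this space, a mean of 17.7% were themselves selected, against 6.63% for other cells and 6.62% of cells at large. The share in the leading cluster was 51.7 to 65.3% with 4 other seeds, after centring genes per suffix or at a lower resolution, but 40.9% with 20 components and 25% at resolution 1.5, where that cluster split.

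**Figure D2:**
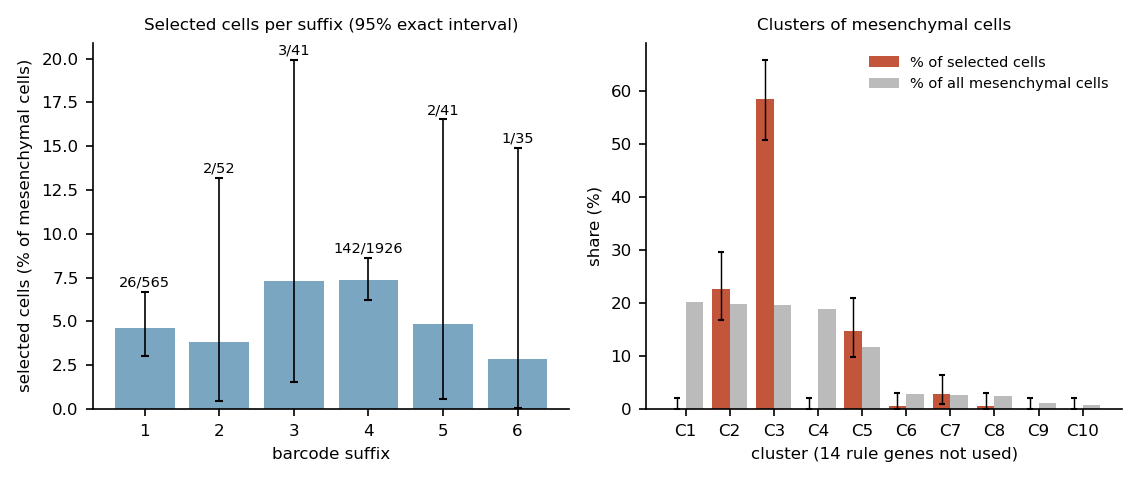
Left, selected cells as a percentage of the mesenchymal cells of each barcode suffix, with their numbers and exact binomial 95% intervals. Right, share of the 176 selected cells and of all 2660 mesenchymal cells in each of 10 clusters drawn without the 14 rule genes. Suffix 4 gives 142 of the cells, and C3, C2 and C5 hold 103, 40 and 26 of them.

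The selected cells of C3, C2 and C5 differed from one another in the fibroblast marker genes given here. Dcn, which encodes the matrix proteoglycan decorin, stood at 5886 CPM in the 40 selected cells of C2, 1657 CPM in the 103 of C3 and 406 CPM in the 26 of C5, against 7374, 1829 and 154 CPM in the unselected cells of those clusters. Col14a1 followed the same order, at 689, 216 and 64.2 CPM against 722, 234 and 96.1 CPM. Npnt, a ligand of the integrin that contains the Itga8 chain, ran the other way, at 29.9, 249 and 1273 CPM, against 21.2, 242 and 1476 CPM in unselected cells. Limch1, a marker of alveolar wall fibroblasts, stood at 162, 1235 and 2139 CPM against 99.8, 1088 and 2071 CPM. The chemokine gene Cxcl14 stood at 59.9, 669 and 2128 CPM against 45.97, 658 and 1758 CPM. In C2 some genes were lower in selected than in unselected cells, with Fn1 at 65.9 against 388 CPM, Tmem100 at 11.98 against 131 CPM and Ly6c1 at 102 against 359 CPM. The rule sets Pi16 to 0 in the selected cells, while it stood at 744 CPM in the unselected cells of C2. Tmem100 and Ly6c1 stood at 135 and 369 CPM in Pi16 cells, and the part of the bar on Pi16 was not tested. Col13a1 had 0 UMIs in the selected cells of C2 and stood at 76.2 CPM in C3 and 267 CPM in C5. Since these genes also drew the clusters, the order is a description. Levels of Rbp4 were closer together, at 593 CPM (C2), 753 CPM (C3) and 577 CPM (C5). In unselected cells of C3 Rbp4 stood at 612 CPM, St8sia2 at 181 CPM and Slco2b1 at 130 CPM.

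Against all other mesenchymal cells, few genes outside the rule were 2-fold higher in the selected cells. With a minimum of 20 CPM as the mean of both groups, 6130 genes were measured, of which 26 (0.424%) were 2-fold or more higher and 127 (2.07%) 2-fold or more lower, around a median log2 ratio of -0.05. The rule used this contrast, so genes that vary with its 14 genes lie on both sides by construction. Most of the higher genes had few UMIs, and with the minimum at 50 CPM 7 genes were 2-fold higher. Without suffix 4, which leaves 34 selected cells, 492 were higher and 290 lower.

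The gene with the highest ratio came from 1 cell. Jchain, the joining chain of secreted antibodies, had 1041 UMIs in the selected cells, 1039 of them in 1 cell of suffix 4 that also had the most UMIs of all selected cells (13652). That cell lay outside the doublet calls, in which 0 of 176 selected cells and 29 other mesenchymal cells were marked. It was the only selected cell in cluster C8, which was led by Jchain, Cd74 and other immune genes. Without it 24 genes were 2-fold higher and 134 lower.

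The next highest ratio was that of Il6. Il6 (chromosome 5, 30013114 to 30019981), the cytokine interleukin 6, stood at 47.5 CPM (33.4 to 65.5) against 11.8 CPM (9.62 to 14.4), 4.01-fold higher (log2 interval 1.42 to 2.56). Its 37 UMIs lay in 16 cells, 8 of them in 1 cell, and the level was 57.9 CPM in suffix 1 and 47.7 CPM in suffix 4 against 15.1 and 12.03 CPM in other mesenchymal cells there. Ch25h, which makes 25-hydroxycholesterol, was at 47.5 CPM against 15.2 (log2 1.65, 1.08 to 2.18), from 23 cells. Adamtsl1, a secreted matrix protein related to the ADAMTS proteases, was at 124 CPM (101 to 152) against 59.8 CPM (log2 1.06, 0.73 to 1.37), from 65 cells. Both Il6 and Ch25h stood above each comparison group, the nearest being the Pi16 cells at 18.6 and 21.7 CPM, though Ch25h in Cdh22 cells, from 5 UMIs, had an interval (4.76 to 34.2) that touches that of the selected cells. Adamtsl1 was nearer to Pi16 cells, at 96.2 CPM (80.0 to 115). Icosl, a ligand of a T cell costimulatory receptor, stood at 94.97 CPM against 46.1. Within cluster C3 Icosl was nearer, at 90.6 CPM (65.8 to 122) in selected and 78.3 CPM (65.7 to 92.6) in unselected cells.

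Among transcription factors, Nr4a3, an orphan nuclear receptor induced by many stimuli, stood at 80.9 CPM (62.1 to 103) against 33.2 CPM (log2 1.28, 0.86 to 1.68), from 63 UMIs in 39 cells. Foxs1, a forkhead factor, was at 41.1 CPM against 16.4 (log2 1.33, 0.72 to 1.89), and Egr2, an immediate early factor, at 78.3 CPM against 28.0 (log2 1.48, 1.05 to 1.90). Of the 61 Egr2 UMIs 17 lay in 1 cell. Intervals overlapped those of the selected cells for Foxs1 in Cdh22 cells, at 35.2 CPM (18.2 to 61.5), for Egr2 in Cdh22 cells, at 38.1 CPM (20.3 to 65.2), and for Nr4a3 in Pi16 cells, at 59.0 CPM (46.5 to 73.8). The direction was the same within suffixes 1 and 4 for these genes, as the rule for naming them required, but suffix 1 gave only 2 to 12 UMIs a gene.

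**Figure D3:**
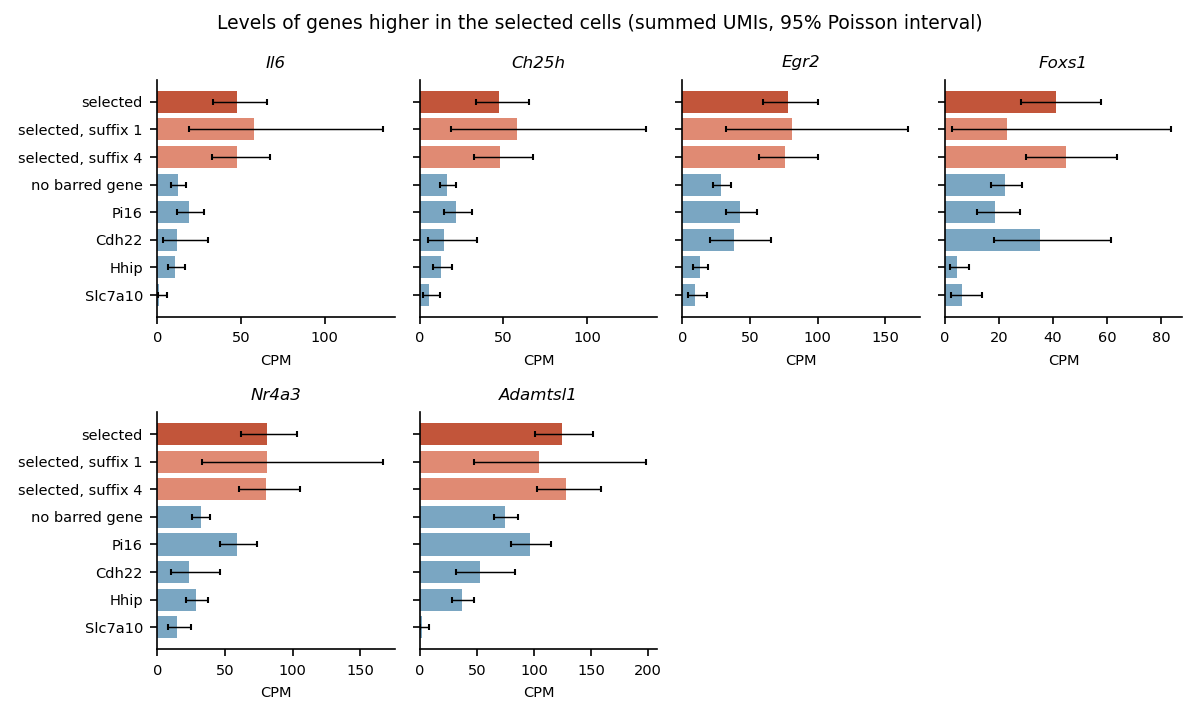
Levels (CPM of summed UMIs, with exact Poisson 95% intervals) of 6 genes outside the rule in the same groups as in the plot of the rule genes. Il6 and Ch25h are lower in each of the 4 other fibroblast groups than in the 176 selected cells, while the intervals of Foxs1, Egr2 and Ch25h in Cdh22 cells and of Nr4a3 and Adamtsl1 in Pi16 cells overlap those of the selected cells.

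Shares of cells moved in the same way at equal depth. With each cell thinned to 1500 UMIs, 10.5% of selected and 3.92% of other mesenchymal cells had an Nr4a3 UMI, against 0.755% of immune cells. For Adamtsl1 the shares were 17.4%, 6.28% and 0.0269%, for Ch25h 7.56%, 1.64% and 0.269%, and for Il6 3.49%, 1.59% and 0.135%. Egr2 was found in 6.40%, 2.73% and 3.56%, so its share in immune cells exceeded that in other mesenchymal cells. Thinning left out 4 selected, 288 other mesenchymal and 500 immune cells. Before thinning, the shares of selected and other mesenchymal cells were 22.2% and 8.25% for Nr4a3 and 9.09% and 2.62% for Il6.

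Other genes of the highest 20 stood between log2 1.03 and 1.33, each from 23 to 39 UMIs, apart from Icosl with 74 and Adamtsl1 with 97. They were the Ras exchange factor gene Rasgef1b, the pyrimidine breakdown gene Dpyd, the linker histone gene H1fx, Gm14403, the phospholipase gene Gpld1, the hexokinase gene Hk2, the cyclic GMP phosphodiesterase gene Pde9a, the protease inhibitor gene Serpinb1a, the anchoring protein gene Akap2 and Gm11627. Of the 24 Hk2 UMIs 6 lay in 1 cell. Intervals of these ratios all lay above 0 but were wide, such as 0.34 to 1.67 for Gm11627.

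Some of the lower genes are known from cells that the rule bars. P2ry14, a nucleotide sugar receptor that marks duct mouth myofibroblasts, had 0 UMIs in selected cells against 112 CPM in other mesenchymal cells. With the 0 entered at 3 UMIs it was 29.0-fold lower, and the upper limit of its log2 ratio was -4.56. Aspn, a proteoglycan gene of the same cells, stood at 25.7 CPM against 296 (log2 -3.53, -4.24 to -2.90), and Enpp2, which encodes autotaxin, at 56.5 CPM against 311. Cxcl13, a B cell attracting chemokine, also had 0 UMIs, 18.4-fold lower by the same entry, with an upper limit of the log2 ratio of -3.90. Against the 882 other cells without any of the 5 barred genes, Aspn differed little (log2 -0.42).

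Some genes were low against that comparison too, in which 6135 genes were measured, 35 (0.57%) were 2-fold or more higher and 158 (2.58%) lower. Those 882 cells held more mesothelial and epithelial RNA (marker sums of 841 and 546 CPM) than the selected cells (27.0 and 44.9 CPM), and its part in the lower genes was not tested. The 12 markers of Col13a1 (alveolar wall) fibroblasts also summed higher in them, to 5363 CPM against 3882 CPM, and the part of these was likewise not tested. Tmem100, a membrane protein gene downstream of BMP signals, stood at 14.1 CPM in selected cells against 141 CPM in other mesenchymal cells (log2 -3.32, -4.33 to -2.47) and 120 CPM in cells without the barred genes. It was at 135, 261, 144 and 44.0 CPM in Pi16, Slc7a10, Hhip and Cdh22 cells, so the selected cells were lower than each of these groups. Its 11 UMIs lay in 8 cells. Low Tmem100 was not particular to the selected cells within cluster C3. It stood there at 12.4 CPM (4.53 to 26.9) in selected and 19.6 CPM (13.5 to 27.3) in unselected cells. In unselected cells of C2 and C5 it stood at 131 and 109 CPM. Clu, which encodes clusterin, stood at 11.6 CPM against 86.7 (log2 -2.91, -4.04 to -1.97), Ces1d, a carboxylesterase gene, at 16.7 CPM against 103, Mapt, the tau gene, at 10.3 against 66.5 and Scube2, a hedgehog release factor gene, at 6.42 against 57.0. Against cells without the barred genes the log2 ratios were -3.09 for Tmem100, -3.36 for Clu, -2.58 for Ces1d, -2.89 for Mapt and -3.17 for Scube2. In Slc7a10 cells, a kind that the rule bars, Ces1d, Mapt and Scube2 stood at 428, 244 and 242 CPM. Within suffix 4 the log2 ratios of Ces1d, Mapt and Scube2 were -2.92, -2.69 and -3.27, and in suffix 1, with 3, 0 and 0 UMIs in selected cells, they could not be read. The other genes of the lowest 15 were Gpm6a, Smpd3, Tagln, Lhfpl2, Fbxw17, Lcorl and Tyrobp. Of these Lhfpl2 was level with the cells without the barred genes (log2 0.0079), and the interval of Lcorl there included 0 (-1.08, -2.60 to 0.15).

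**Figure D4:**
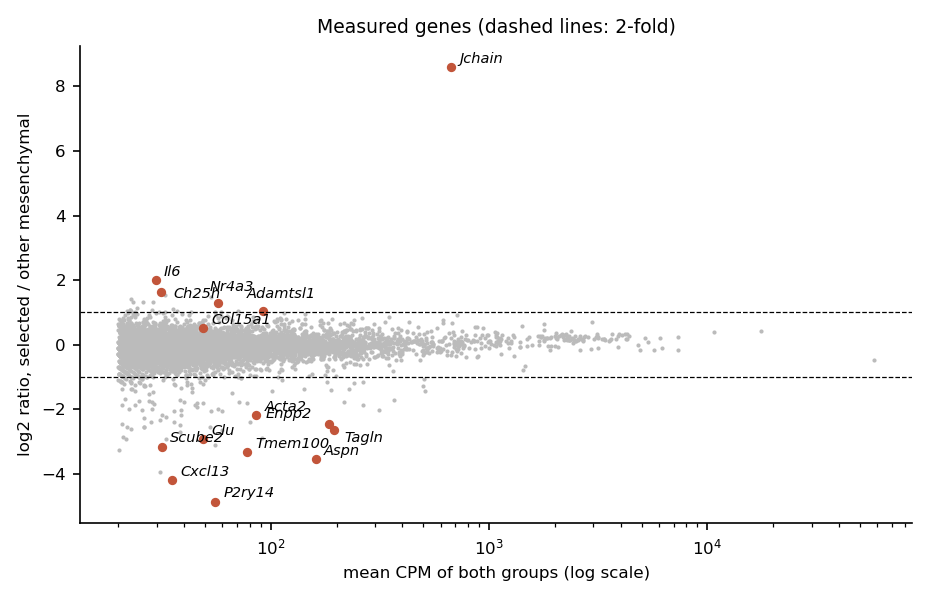
Log2 ratio of CPM (selected against other mesenchymal cells) over the mean CPM of both groups on a log scale for 6130 measured genes, with 2-fold marked by dashed lines and counts under 3 UMIs entered at 3. Most genes lie within 2-fold, 26 lie at or above it and 127 at or below it, and Jchain, at the top, comes almost wholly from 1 cell.

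Genes of retinoid handling, the pathway to which Rbp4 belongs, were close to the other mesenchymal cells. Of 20 genes on the list 11 were measured, and 0 were 2-fold higher or lower, with a median log2 ratio of 0.23 beside -0.05 over all measured genes. For this list and those below, the shares over all measured genes were 0.424% higher and 2.07% lower. Dhrs3, which reduces retinal, stood at 160 CPM against 112 and the alcohol dehydrogenase Adh1 at 258 CPM against 186. Lrat, which esterifies retinol for storage, stood at 160 CPM against 150, and the retinoic acid making enzyme Aldh1a1 at 168 CPM against 260 (log2 -0.63), with opposite signs in suffix 1 (0.65) and suffix 4 (-0.83).

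Matrix genes likewise lay mostly within 2-fold, beside 0.424% higher and 2.07% lower over all measured genes. Fibrillar and associated collagens had 11 measured genes, 0 past 2-fold in either direction, and a median of 0.04: Col1a1 stood at 1133 CPM against 1084 and Col13a1 at 83.4 CPM against 139. Of 16 measured basement membrane genes 0 were higher and 1 was lower, Npnt at 323 CPM against 678 (log2 -1.07), with a median of -0.07 and the laminin gene Lamc3 (35.9 CPM against 22.6) highest. Elastic fibre genes had 0 higher and 1 lower of 17, Ltbp2, with elastin (Eln) at 1127 CPM against 1070. Small leucine-rich proteoglycans had 0 higher and 2 lower of 9, Aspn and Lum. Collagen processing genes had 0 of 13 past 2-fold. Proteases and their inhibitors had 1 higher of 23, Adamtsl1, and below it came the stromelysin gene Mmp3 (447 CPM against 248) and Timp3 (3654 CPM against 2265), of which Mmp3 was lower within suffix 1 (log2 -0.37).

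The provisional matrix is laid down in injury. Of 13 measured genes of it, 0 were 2-fold higher (0.424% of all measured genes) and 3 lower (2.07%), with a median log2 ratio of -0.28, which was -0.02 within suffix 1 and -0.09 against cells without the barred genes. Fn1, the fibronectin gene, stood at 114 CPM against 414 (log2 -1.86), and at 104 and 118 CPM in the selected cells of suffixes 1 and 4 against 244 and 432 CPM in others. Low Fn1 was not particular to the selected cells within cluster C3. There it stood at 90.6 CPM (65.8 to 122) in selected and 121 CPM (106 to 139) in unselected cells. In unselected cells of C2 and C5 Fn1 stood at 388 and 506 CPM. Wisp2 stood at 79.6 CPM against 204. Spp1, the osteopontin gene, stood at 11.6 CPM against 60.7 (log2 -2.39), with all 9 of its UMIs in selected cells of suffix 4. The tenascin gene Tnc had 0 UMIs in selected cells and stood at 21.4 CPM in others.

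**Figure D5:**
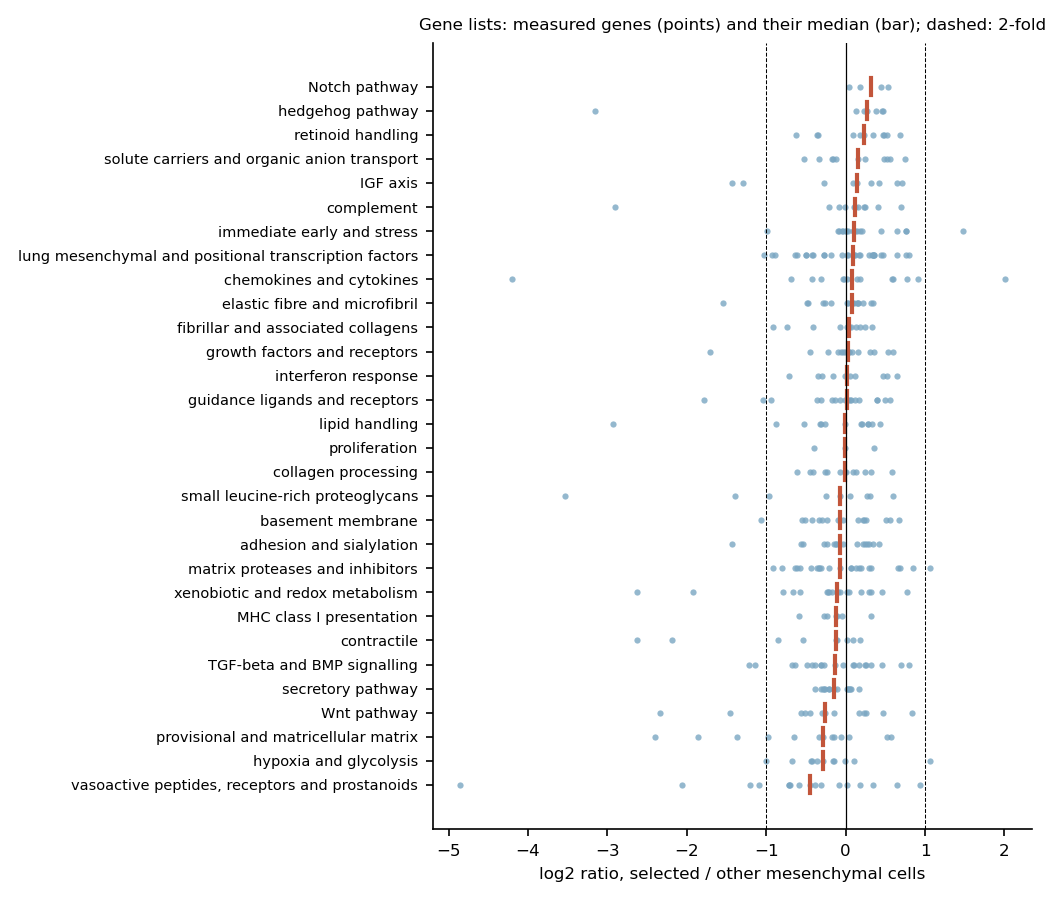
Log2 ratio of CPM (selected against other mesenchymal cells) for the measured genes of 30 lists, 1 point a gene, with the median of each list as a bar and 2-fold as dashed lines. No median lies beyond 2-fold, and the medians run from -0.45 for vasoactive genes to 0.31 for the Notch pathway.

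Contractile genes split. Of 9 measured, 2 were lower and 0 higher: Tagln at 53.9 CPM against 334 (log2 -2.63, -3.11 to -2.19) and Acta2, the smooth muscle actin gene that the sort reporter reads, at 30.8 CPM against 140 (log2 -2.19). Mylk (497 CPM against 535), Tpm1 (317 against 279) and Myl9 (150 against 141) were close, and the median was -0.12. Markers of duct mouth myofibroblasts, which include Acta2 and Tagln, moved with these genes. Their 10 genes summed to 425 CPM in selected cells (371 in suffix 1 and 431 in suffix 4) against 2439 CPM in others, with Hhip, Lgr6 and P2ry14 at 0, Hhip by the rule. The sum was 418 CPM in Pi16 cells, 496 CPM in Cdh22 cells and 617 CPM in Slc7a10 cells, against 8960 CPM in Hhip cells. A low sum was thus not particular to the selected cells. Within cluster C3 Tagln stood at 82.3 CPM in selected and 42.0 CPM in unselected cells, and Acta2 at 32.9 and 38.0 CPM. The part of the duct mouth markers in the contractile result was not tested.

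Chemokine and cytokine genes had 1 higher (Il6) and 1 lower (Cxcl13) of 14 measured, beside 0.424% and 2.07% of all measured genes, with a median of 0.08. Cxcl12, which retains blood precursors and lymphocytes, stood at 936 CPM against 496 (log2 0.92), but at 394 against 392 CPM within suffix 1, so the difference came from suffix 4 (1023 against 538 CPM). The B cell factor gene Tnfsf13b stood at 303 CPM against 176. Complement genes had 0 higher and 1 lower (Clu) of 11, with C4b highest at 533 CPM against 330 and C3 at 543 against 488. Cxcl13 and the mesothelial list moved together: 9 mesothelial markers, among them Cxcl13, summed to 27.0 CPM against 389, with Lrrn4, Cxcl13 and Krt8 at 0. The sum was 220 CPM (19 UMIs) in selected cells of suffix 1 and 2.98 CPM (2 UMIs) in those of suffix 4, and the part of mesothelial RNA was not tested. Cluster C6, led by Upk3b and Gpm6a of this list, held 1 selected cell, which was of suffix 1.

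Vasoactive genes, the group of the kinin receptor Bdkrb1, had the lowest median of the 30 lists against all other mesenchymal cells (-0.45). Of 17 measured, 0 were higher and 4 lower, beside 0.424% and 2.07% of all measured genes: P2ry14, Gucy1a3, Ace and Ptgs1. Gucy1a3, a subunit of the nitric oxide receptor, stood at 20.5 CPM against 85.8 and Ace, the angiotensin converting enzyme, at 21.8 against 50.4. The endothelin receptor gene Ednra was level (186 CPM against 184), and the prostaglandin receptor gene Ptger4 stood at 32.1 against 16.7. The median of this list was 0.05 within suffix 1, -0.14 against cells without the barred genes, where MHC class I presentation was lowest (-0.45), and 0.24 against Pi16 cells. Guidance genes, the group of Sema3d, had 0 higher and 2 lower of 18: Efnb2 at 17.97 CPM against 61.8 and Sema3c at 47.5 against 97.9, with 17 of the 37 Sema3c UMIs in 1 cell. The semaphorin receptors Nrp1 (479 CPM against 363) and Nrp2 (148 against 105) were slightly higher. Efnb2 was not lower than in cells without the barred genes (log2 0.53). Adhesion and sialylation genes, the group of Adam23 and St8sia2, had 0 higher and 1 lower (Itga9) of 16, and solute carriers, the group of Slco2b1, 0 past 2-fold of 11, with Abcc9 highest at 212 CPM against 126.

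Signalling pathways showed single genes rather than shifts of whole lists, beside 0.424% higher and 2.07% lower over all measured genes. The Wnt list had 0 higher and 2 lower of 13, Wnt2 (10.3 CPM against 51.8) and Rspo1 (23.1 against 63.6), each with 1 UMI in the selected cells of suffix 1, while the receptor gene Fzd2 stood at 73.2 CPM against 40.9. TGF-beta and BMP genes had 0 higher and 2 lower of 21, with the BMP target gene Id1 at 29.5 CPM against 68.7. Growth factors and receptors had 0 higher and 1 lower of 16, the Kit ligand gene Kitl (17.97 CPM against 58.5), and Pdgfra stood at 502 CPM against 535. The IGF axis had 0 higher and 2 lower of 9, Igfbp3 (276 CPM against 746) and Igfbp5 (289 against 705, with 77 of 225 UMIs in 1 cell), while Igfbp4 stood at 2174 CPM against 1391. Hedgehog genes had 0 higher and 1 lower (Scube2) of 7, and Notch genes 0 past 2-fold of 4.

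Transcription factors of lung mesenchyme had 0 higher and 1 lower of 31 (over all measured genes 0.424% and 2.07%), Foxf2 at 30.8 CPM against 62.6, with a median of 0.10. Prrx1, a factor of limb and connective tissue mesenchyme, was highest at 241 CPM against 139 and stood at 262 CPM in Pi16 cells. Tcf21 stood at 200 CPM against 312 and Tbx4, the driver of the lineage reporter, at 46.2 CPM (36 UMIs) against 55.8. Immediate early genes, which dissociation can induce, had 1 higher of 18 (Egr2) and a median of 0.11. Fos (1892 CPM against 1948), Jun (1348 against 1426) and Dusp1 (943 against 962) were level, while Nr4a1 stood at 770 CPM against 454 and Gadd45b at 168 against 98.9.

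Metabolic and housekeeping lists lay close to the rest, beside 0.424% higher and 2.07% lower over all measured genes. Lipid handling had 0 higher and 1 lower of 13, Fabp5 at 7.70 CPM against 58.6, all 6 UMIs in suffix 4. Xenobiotic and redox genes had 0 higher and 2 lower of 19, Ces1d and Cyp2e1, and hypoxia and glycolysis genes 1 higher (Hk2) and 1 lower (Eno1) of 11. Interferon response (10 measured), MHC class I presentation (7), secretory pathway (15) and proliferation (3) had 0 past 2-fold.

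Markers of blood, epithelial and endothelial cells were present in the selected cells at low sums. The 14 immune markers summed to 204 CPM in selected cells against 790 CPM in other mesenchymal cells and 297 CPM in those without the barred genes, with Ptprc (by the rule), Cd3e and Nkg7 at 0 and Lyz2 at 124 CPM. The 13 epithelial markers summed to 44.9 CPM against 244, with 7 of 13 at 0, Epcam among them. The 13 endothelial markers summed to 122 CPM against 169, with Lyve1 and Prox1 at 0, but to 124 CPM against 103 within suffix 4. The 12 genes of pericytes and smooth muscle summed to 542 CPM against 512, with Rgs5, Myh11, Cnn1 and Actg2 at 0, and consisted mainly of Abcc9, Kcnj8 and Pdgfrb, at 212, 168 and 105 CPM. The 12 markers of Col14a1 matrix fibroblasts summed to 4983 CPM against 4844, and the 12 of Col13a1 matrix fibroblasts to 3882 against 4746. The sums of the shorter or rarer lists were 66.7 against 65.0 CPM for Schwann and perineurial cells, 8.98 against 10.3 for red blood cells, 181 against 139 for Cdh22 fibroblasts and 34.7 against 46.7 for Adh7 Bmp7 fibroblasts. Pi16, Slc7a10 and Cdh22, on the Col14a1, Col13a1 and Cdh22 lists in that order, were at 0 in selected cells by the rule. The 6 marker genes given with the name of the selected cells, Rbp4, Adam23, Aox3, Bdkrb1, St8sia2 and Col15a1, summed to 1172 CPM against 477, and all but Col15a1 are genes of the rule.

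Set against each of 4 other fibroblast groups, the selected cells were about as like cells with Cdh22 as cells with Pi16. They were less like cells with Hhip or Slc7a10. Over 6130 genes, Pearson's r of log2(CPM + 10) was 0.952 with 349 Pi16 cells, 0.947 with 75 Cdh22 cells, 0.911 with 628 Hhip cells and 0.875 with 317 Slc7a10 cells, across genes and as a description, with less depth behind the smaller groups. All of these cells come from the same libraries. The 12 Col14a1 matrix markers, Pi16 among them, summed to 12937 CPM in Pi16 cells, 4983 CPM in selected cells and 2512 CPM in Cdh22 cells. For the 12 Col13a1 matrix markers the sums were 1438, 3882 and 5403 CPM. Of the 6130 genes, 213 (3.47%) were 2-fold or more higher and 122 (1.99%) lower than in Pi16 cells, 352 (5.74%) higher and 112 (1.83%) lower than in Cdh22 cells, 395 (6.44%) higher and 222 (3.62%) lower than in Hhip cells, and 467 (7.62%) higher and 441 (7.19%) lower than in Slc7a10 cells. The group gene itself and the other rule genes were not counted.

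Against Pi16 cells, the signalling regulator gene Rgs2 was higher (98.8 CPM against 11.6, log2 3.09, 2.28 to 3.99), as were the alveolar wall genes Npnt (323 against 53.5 CPM) and Itga8 (178 against 38.0 CPM). Lower were Sfrp4, a secreted Wnt modulator (5.13 against 111 CPM), Ly6c1 (46.2 against 369 CPM) and the decoy chemokine receptor Ackr3 (20.5 against 125 CPM). Against Cdh22 cells, the secreted inhibitor gene Serpinf1 stood at 172 CPM against 14.7 (log2 3.55, 2.29 to 5.20) and Scara5, a marker of Pi16 fibroblasts, at 69.3 against 5.87 CPM, while Fn1 stood at 114 against 508 CPM. Against Slc7a10 cells, Adamtsl1 (124 against 2.09 CPM), Ccl11 (151 against 4.19), the factor gene Ebf1 (135 against 6.28) and Igfbp4 (2174 against 133) were higher, and Wnt2 (10.3 against 238) and Fgfr4 (5.13 against 107) lower. Against Hhip cells, Foxs1 (41.1 against 4.62 CPM) and Osr1 (217 against 37.5) were higher.

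At 2-fold or more, 5 of 6130 genes were higher than in each of the 4 groups: Il6, Ch25h, Jchain, Slpi and Cd52. The last 3 rest on single cells, since 24 of 30 Slpi and 17 of 21 Cd52 UMIs lay in 1 cell. The 6 genes 2-fold or more lower than in each group were Tmem100, Tyrobp, Laptm5, Apbb2, Acly and Fbxw17, of which Tyrobp and Laptm5 are leukocyte genes on the immune list. The 4 groups, like the selected cells, were chosen without a UMI of Ptprc. These genes, like the rest of the comparison, come from counts whose groups were defined by the presence or absence of single transcripts, and a cell with 0 UMIs of a barred gene may still express it.

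Within cluster C3 the selected cells and the unselected cells around them were close. Of 5904 measured genes 29 (0.491%) were 2-fold or more higher and 57 (0.965%) lower in the 103 selected cells than in the 418 others. Among the 12 highest was Nfil3, a transcription factor gene, with 25 UMIs (51.5 CPM against 23.0, log2 1.16, 0.38 to 1.92). Sftpc, a surfactant gene of alveolar epithelium, was lowest, at 22.6 CPM against 309, and the part of epithelial RNA in the unselected cells was not tested. Il6 stood at 41.2 CPM (20 UMIs) against 18.4 and Ch25h at 55.6 CPM (27 UMIs) against 25.9, while Adamtsl1 (111 against 94.4 CPM) and Foxs1 (51.5 against 36.8 CPM) were nearer to each other than over all mesenchymal cells. Col15a1 stood at 43.2 CPM in the selected and 68.5 CPM in the other cells of C3.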

How the data were processed

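Single cells of mouse lung were measured with droplet 3′ RNA sequencing. Of 9994 barcodes that passed the filter, 2660 met the collagen minimum and 4211 had Ptprc and no collagen UMI. The deposited table gives raw counts of UMIs per gene and barcode, made with Cell Ranger 1.3.0 and STAR 2.5.1 on mm10, per the submitters' processing notes. No label or header used here says how cell barcodes were called. A second deposited table gives the authors' normalized signal, in which every barcode sums to 2631.5, and it equalled the scaled counts to within 4.77e-12 over its 19562 genes.

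A barcode was kept at 500 genes or more and with mitochondrial UMIs at 10% or less. UMIs were summed over cells and divided by the group's total (CPM), and a gene was measured where the mean CPM of both groups was 20 or more. Genes are called 2-fold higher or lower by size alone. The pooled table, untied to labels, was treated as 1 sample, so no test or p-value is given. Values are also given within suffixes 1 and 4, which hold all but 8 selected cells. These suffixes cannot be read as replicates, since they differ in sex-linked transcripts and no label gives their gates or days. Intervals (95%, exact Poisson or binomial) cover counting error only. Counts under 3 UMIs were entered at 3 in ratios. The 14 genes of the rule were left out of counts of genes. Depth was 779212 UMIs in selected and 8365315 in other mesenchymal cells.

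Named genes were the 20 highest and 15 lowest measured genes with the same direction in suffixes 1 and 4, up to 3 highest and 2 lowest of each list past 2-fold, list members needed for their role, marker genes and the rule genes. Genes named within cluster C3 and against the Pi16, Cdh22, Hhip and Slc7a10 cells, and those with most UMIs in 1 cell, were chosen after their values were seen. Some genes that this rule takes in are not reported here. The rule, the 30 gene lists and the 13 marker lists were chosen with earlier results of these data known. Clusters were drawn with scanpy 1.11.5 and leidenalg 0.10.2 (2000 variable genes, 30 components, 15 neighbours, resolution 0.8). Scrublet, run per suffix, called 75 barcodes doublets (0.750%), and these were left in except in an alternative. The summing and ratio steps were tested on simulated data. Alternatives changed the cell filter, the rule's minimum, the comparison cells, the suffixes, the scaling, the depth, the fold and the clustering.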

Additional observations from a re-analysis of the deposited data

How the results depend on the processing

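The share of selected cells among mesenchymal cells (6.62%) was 8.08% with 1000 genes and at most 5% mitochondrial UMIs, 2.33% with 3 of the 6 genes required, 12.5% with 1, 4.59% with 2 UMIs of Rbp4, 10.1% with 10 collagen UMIs and 4.63% without suffix 4. The number of genes 2-fold higher (26) was 67 with 3 of the 6 genes, 44 with 2 UMIs of Rbp4, 492 without suffix 4, 681 within suffix 1, 142 with suffixes 1 and 4 weighted equally, 44 without mitochondrial and ribosomal genes in the total, 44 from the authors' normalized values and 124 with cells thinned to 1500 UMIs. The number 2-fold lower (127) was 281 with 3 of the 6 genes, 290 without suffix 4, 209 within suffix 1, 237 with equal weights and 327 after thinning. With a minimum of 5 CPM 150 genes were higher and 720 lower, and with 50 CPM 7 and 36. At 4-fold 2 were higher and 40 lower, and at 1.5-fold 192 and 482. Suffix 1 holds 86348 UMIs of selected cells, so a level of 20 CPM there is under 3 UMIs, and thinning likewise leaves few UMIs a gene.

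The Col15a1 log2 ratio (0.51) was 0.98 with 3 of the 6 genes, -0.066 with 10 collagen UMIs, 1.11 without suffix 4 and 1.29 within suffix 1. The share of selected cells in the leading cluster (58.5%) was 25% at resolution 1.5 and 40.9% with 20 components. The causes of these differences were not tested. Of the values of single genes under the alternatives, 822 moved little, 132 moved and 18 changed sign, and of list medians 525 moved little and 15 moved. With 3 of the 6 genes Hk2 was at -0.76 and Jchain at -3.66. With 1 of the 6 Gpm6a was at 0.30, Igfbp5 at 0.12 and Rspo1 at 0.35. Without suffix 4 Ltbp2 was at 0.070 and Spp1 at 0.39, with 0 UMIs of either in selected cells, so both signs come from entering 3 UMIs. Against cells without the 5 barred genes Efnb2 was at 0.53, Lhfpl2 at 0.0079 and Lum at 0.18. Within suffix 1 Eno1 was at 0.015, Fabp5 at 1.05, Id1 at 0.31, Itga9 at 0.12, Ltbp2 at 0.98, Rspo1 at 0.29, Spp1 at 1.91 and Wnt2 at 1.05. Of these 8, Fabp5, Ltbp2 and Spp1 had 0 UMIs in selected cells there, Rspo1 and Wnt2 1 and Itga9 2, so those 6 signs come from entering 3 UMIs and are no change of direction. Leaving out the cell with the Jchain UMIs (24 higher, 134 lower) or the shared barcode sequences (26 and 126) was chosen after seeing the data. No paired analysis was possible because no label ties a barcode suffix to a sample or gives selected and other cells a replicate number. The values within suffixes are given as a description and do not replace it.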

Other observations

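Of 392 mesenchymal cells with Rbp4 and 2 or more of the 6 genes, 216 were left out for a UMI of a barred gene. Pi16 barred 133 of them, Hhip 80, Cdh22 51, Ptprc 18 and Slc7a10 13, and 151 were barred by exactly 1 gene. In 80 cells the bar rested on 1 UMI in all. Rbp4 stood at 800.2 CPM and Col15a1 at 70.8 CPM in those 80 cells, against 693 and 57.8 CPM in the 176 selected cells.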
